A study of Rattus norvegicus with 174 samples.

Results

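The genes described here are 10 early-response genes of the rat: the zinc-finger transcription factors Egr1, Egr2 and Egr3, the Krüppel-like factors Klf2, Klf4 and Klf6, the immediate early response genes Ier2 and Ier3, the interferon-related regulator Ifrd1 and the proto-oncogene Myc. They were taken by symbol, 10 of the 13438 genes that the array annotation names, and a gene with several probe sets (5 for Klf2, 2 for Egr2) is shown by its brightest one on average. Their signals were compared between rats that had inhaled phosphine (PH3), a toxic fumigant gas, and rats that had inhaled air. All 33 animals were adult male Sprague-Dawley rats, an outbred stock. The exposure was to 660 ppm during 32.2 min, which the labels call high, give as 21252 ppm x min and place at 0.91 times the median lethal product, and air rats breathed 0 ppm during the same 32.2 min. Brain, heart, kidney, liver and lung were collected 1, 3, 6 and 24 h after the exposure from 4 exposed and 4 air rats, with 2 air rats at 6 h, each rat giving all 5 solid tissues. Blood was drawn from the heart: 4 rats of either kind gave it at 1 and at 3 h, 5 exposed rats and 1 air rat at 6 h, and 2 exposed rats, with no air rat beside them, at 24 h. The rats of both groups were anaesthetised with ketamine and xylazine and bled before the tissues were frozen.

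Immediate early genes are transcribed within minutes of a stimulus without new protein synthesis, mostly through kinase cascades that end at serum response factor and its partners on the CArG box, or at CREB on the cyclic AMP response element. Their transcripts are short-lived, so a pulse fades unless the stimulus goes on. Egr and Klf proteins bind GC-rich DNA and regulate later genes, Klf2 and Klf4 are known as flow-responsive factors of the vessel wall, and Myc drives ribosome production and growth.

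Promoter sequences of RefSeq on the assembly GRCr8 were matched for 6 of the 10 members (Egr1, Egr2, Ier2, Klf4, Klf6 and Ifrd1), and the 250 bases before the listed start were searched on both strands. Stretches of 4 of these genes are shown because they hold elements through which early genes are commonly induced, or, for Ifrd1, one that Egr proteins bind. Capitals mark the match, the strand is the gene's own, and the listed starts of Egr2 and Ifrd1 lie inside the annotated gene rather than at its outer end.
Egr2, chr20:21054475-21054564, minus strand, CArG box: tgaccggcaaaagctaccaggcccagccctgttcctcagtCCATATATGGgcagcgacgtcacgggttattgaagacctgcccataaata
Klf6, chr17:69458630-69458719, minus strand, CArG box: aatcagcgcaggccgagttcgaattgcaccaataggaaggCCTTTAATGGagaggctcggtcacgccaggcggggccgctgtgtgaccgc
Ier2, chr19:40399267-40399354, plus strand, cyclic AMP response element: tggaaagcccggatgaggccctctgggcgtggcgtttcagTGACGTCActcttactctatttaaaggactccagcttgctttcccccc
Ifrd1, chr6:63016165-63016253, minus strand, EGR site: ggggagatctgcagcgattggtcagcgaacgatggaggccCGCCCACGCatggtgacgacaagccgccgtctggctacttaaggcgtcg

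The CArG box was found in 3 of the 6 promoters. Egr1 held it at positions -105 to -96 and -83 to -74, counted from the listed start, Egr2 at -83 to -74 and Klf6 at -201 to -192. Of all 33469 promoter windows of this length in the table, 1.50% held a CArG box. The full cyclic AMP response element, TGACGTCA, lay in Ier2 at -66 to -59 and in 1.59% of all windows. An EGR site, GCGTGGGCG or GCGGGGGCG, lay in Ifrd1 at -148 to -140, on the strand opposite to the gene, and in 2.85% of all windows. The TATA box, TATAAA, lay in Klf4 at -146 to -141 and -78 to -73 and in 12.9% of all windows. A match describes the letters only.

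Values are log2 signals, so that a difference of 1 is a 2-fold difference, and each difference is phosphine minus air ± its SE from the limma fit of the tissue. A gene was called changed at a Benjamini-Hochberg adjusted p (padj) under 0.05 over all genes. Groups without overlap and counts at an unadjusted p under 0.05 are given without the share of all genes. They describe the values and are not calls. Defining markers stood where the labels put them: the mean of the cardiomyocyte list was 12.36 in heart, of the hepatocyte list 12.66 in liver, of the alveolar and airway list 12.67 in lung, of the proximal tubule list 10.05 in kidney and of the neuron list 10.58 in brain. On 11 arrays markers of another organ or of skeletal muscle exceeded their median in that tissue by 4 log2 or more. In the groups that matter here these were the heart of exposed Rat729 at 3 h, the kidney of air Rat720 at 1 h, the livers of exposed Rat719 at 1 h and Rat730 at 3 h, and the lungs of exposed Rat716 at 1 h and of Rat729 (exposed) and Rat733 and Rat738 (air) at 3 h. The differences from air named below for these groups are also given with such arrays left out of the fit. In heart at 1 h no array reached this limit. There the hepatocyte list of exposed Rat712 stood 3.56 above the tissue median, and the alveolar and airway list of exposed Rat710 2.31 above it. Both hearts stayed in that fit, and each was left out only when its rat was. Each tissue is bulk RNA, so that fewer cells of a type and less RNA per cell cannot be told apart. The arrays carry no read depth, and their number limits the precision.

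**Figure D1:**
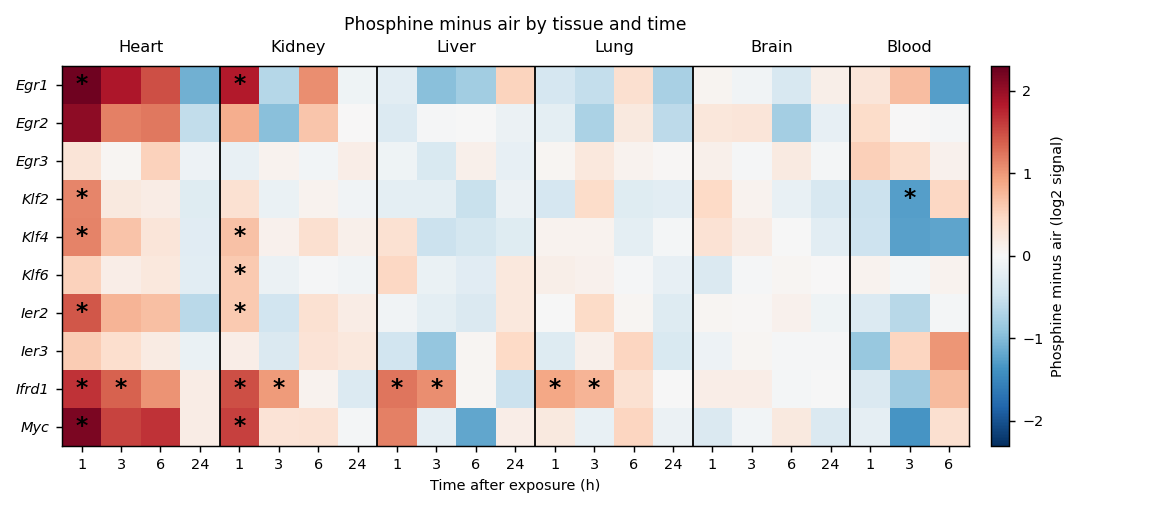
Phosphine minus air on the log2 scale (colour) for the 10 members (rows) in each tissue and time (columns), with asterisks on the values called by limma at an adjusted p under 0.05. Of the 19 asterisks, 12 lie in heart and kidney at 1 h, 8 belong to Ifrd1 and 1, for Klf2 in blood at 3 h, marks a lower value.

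Of the 10 early genes, 6 rose in heart and 6 in kidney within 1 h of the exposure, and at 3 h Ifrd1 was the only member called in a solid tissue. Of the 50 pairs of a member and a solid tissue, 14 were called at 1 h, 4 at 3 h and 0 at both 6 and 24 h, all of them higher after phosphine. In heart at 1 h 6 of 10 members were higher, where 0.99% of all genes were called higher, and in kidney 6 of 10, where 2.12% were. The members were chosen with earlier results of these data known, so the shares of all genes give a scale and no independent test. Without 1 rat the 1 h count ran from 8 to 15, with 8 when Rat712, Rat719, Rat721 or Rat726 was left out. The 3 h count was 7 without Rat728 or without Rat750, a rat of the 24 h air group that enters only through the spread. With the rat as a block in 1 fit of the solid tissues the counts were 13 at 1 h, 9 at 3 h and 2 at 6 h. That fit pools the spread of all solid tissues, so a call gained there can come from a smaller SE with the difference unchanged. For Egr2 in heart at 1 h the SE was 0.40 in it and 0.61 in the fit of heart alone.

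In heart at 1 h all 10 members had a difference above 0, with a median of 1.29 against -0.001 over all genes. In 8 of them the lowest exposed rat stood above the highest air rat, a count given without the share of all genes. Egr1, the best known of the Egr factors, read 9.22, 9.67, 10.30 and 10.86 in the exposed hearts and 7.41, 7.74, 7.79 and 8.19 in the air hearts. Every exposed heart stood above every air heart, and Egr1 rose by 2.23 ± 0.54 (4.69-fold, padj = 0.0355). Egr2, its close relative, read 4.79, 6.17, 6.27 and 6.96 against 3.70, 3.76, 4.17 and 4.33, which did not overlap. The Egr2 difference of 2.06 ± 0.61 did not pass (padj = 0.110), though it did with the rat as a block (padj = 1.25e-04) and without Rat750, and its dimmer second probe set gave 0.21 ± 0.14. Egr3, at 3.29 on average over all arrays and dim in every tissue, differed by 0.29 ± 0.16 with overlapping groups (padj = 0.545).

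All 3 Klf factors read higher in exposed than in air hearts at 1 h. Klf4 read 9.31, 9.33, 9.36 and 9.36 in exposed hearts and 7.86, 8.24, 8.29 and 8.40 in air hearts. The exposed hearts lay very close together and far from the air hearts, and Klf4 rose by 1.14 ± 0.21 (2.21-fold, padj = 0.00357). Klf2 read 10.01, 10.10, 10.31 and 10.41 against 8.74, 9.01, 9.28 and 9.34, again without overlap, and rose by 1.12 ± 0.24 (padj = 0.0176). Of the 4 other probe sets of Klf2, 3 gave differences above 0 (1.53 ± 0.31, 0.72 ± 0.26 and 0.60 ± 0.20) and the dimmest, at 3.01 on average, gave -0.15 ± 0.16. Klf6, a factor known from wound responses, differed by 0.52 ± 0.21 with no overlap (8.04 to 8.61 against 7.64 to 7.92) and did not pass (padj = 0.297).

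Myc, Ier2 and Ifrd1 were the other members called in heart at 1 h. Myc read 5.75, 6.13, 7.11 and 7.37 in exposed hearts and 3.80, 4.0, 4.79 and 5.10 in air hearts, and rose by 2.17 ± 0.48 (4.49-fold, padj = 0.0199). Ier2, a small nuclear protein induced by growth factors, read 8.03, 8.18, 8.85 and 9.25 against 6.65, 7.15, 7.38 and 7.39 and rose by 1.43 ± 0.32 (padj = 0.0226). Both genes were separated between the groups in every rat. Ier3, a regulator of survival and of ERK signalling, differed by 0.59 ± 0.28 with overlapping groups (padj = 0.423). The calls of Egr1 were lost without any one of Rat712, Rat719, Rat720, Rat721, Rat726 or Rat727 (padj up to 0.162), those of Myc without Rat712, Rat719, Rat721 or Rat726, those of Ier2 without Rat712, Rat719 or Rat726, and that of Klf2 without Rat719 or Rat721. With only the 1 h groups in the fit Ier2 (padj = 0.0940) and Myc (padj = 0.0840) were not called, with array weights or a trended robust fit Egr1 was not, and the calls of Klf4 and Ifrd1 held in every alternative run.

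Markers of vessel and blood cells were compared in the same hearts. At 1 h the endothelial list (6 of 7 genes measured) stood at 8.22 to 8.36 in exposed and 7.95 to 8.28 in air hearts, with Cldn5, a tight junction gene, as the 1 gene of the list called (1.14 ± 0.26). The erythroid list (2 of 5 measured) stood at 6.83 to 7.33 against 5.82 to 6.95, with no call. Their part in the heart values was not tested.

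**Figure D2:**
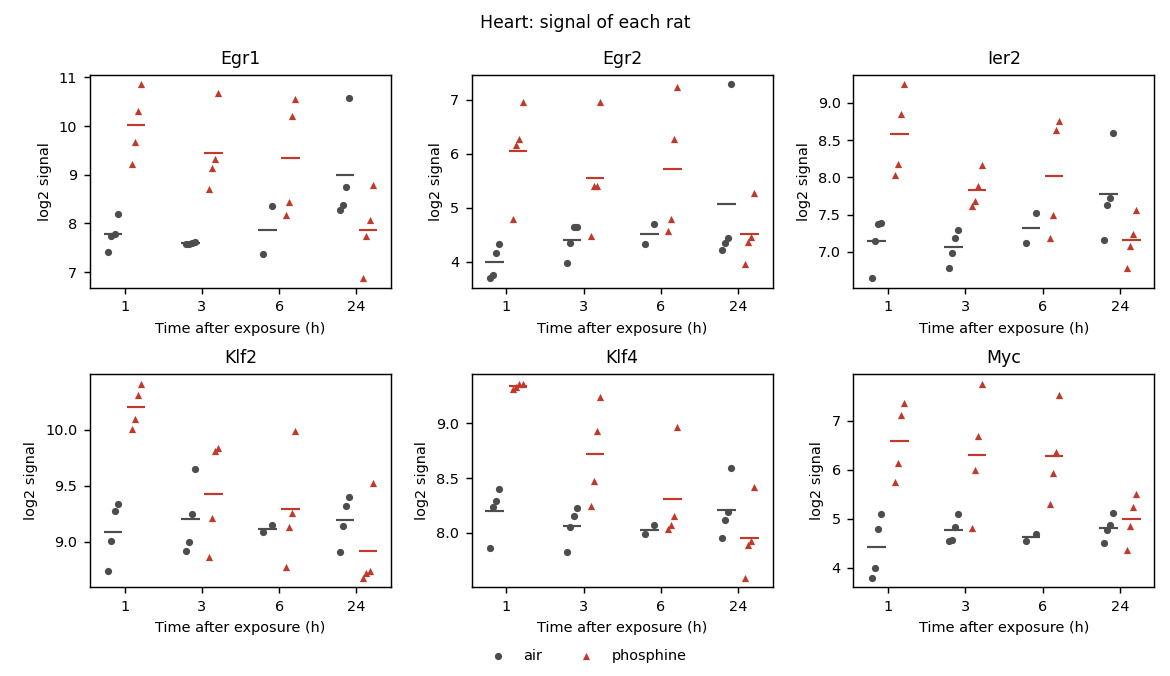
log2 signal of 6 members in the heart of each rat by time after exposure, air as grey circles and phosphine as red triangles, with a line at the mean of each group. At 1 h the groups do not overlap in any of the 6, and at 24 h the highest point of Egr1, Egr2 and Ier2 is an air rat (Rat750).

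At 3 h in heart all 10 differences were again above 0, with a median of 0.72 against -0.02 over all genes, but only Ifrd1 was called, where 1.06% of all genes were called higher. Egr1 read 8.70, 9.13, 9.33 and 10.67 against 7.58, 7.58, 7.60 and 7.62, without overlap, a difference of 1.86 ± 0.54 that missed the threshold (padj = 0.0547, and 0.00422 with the rat as a block). Myc read 4.81, 5.99, 6.69 and 7.75 against 4.56, 4.57, 4.83 and 5.10, so that 1 exposed heart lay among the air hearts, and differed by 1.55 ± 0.48 (padj = 0.0779, and 4.58e-04 with the block). Klf4 differed by 0.66 ± 0.21 without overlap (padj = 0.0828) and was called without the arrays that carry another organ's transcripts (0.82 ± 0.20, padj = 0.0297). Ier2 differed by 0.77 ± 0.32 and Egr2 by 1.16 ± 0.61, called only with the block (padj = 0.0221 and 0.0407). Without the heart of Rat729 and the other such arrays, Egr1 differed by 1.97 ± 0.57 (padj = 0.0772), Myc by 1.42 ± 0.53 (padj = 0.187), Egr2 by 1.21 ± 0.68 and Ier2 by 0.76 ± 0.36. Rat730 had the highest exposed value of all 10 members in heart at 3 h.

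In kidney at 1 h 9 of 10 differences were above 0, with a median of 0.64 against 0.00 over all genes. Egr1 read 9.02, 9.65, 9.66 and 10.04 in exposed kidneys and 6.54, 7.68, 8.02 and 8.88 in air kidneys. The groups did not overlap, and Egr1 rose by 1.82 ± 0.47 (3.52-fold, padj = 0.0323). Myc read 5.72, 6.16, 7.01 and 7.06 against 4.70, 4.82, 5.07 and 5.08 and rose by 1.57 ± 0.27 (2.97-fold, padj = 9.90e-04). The air kidneys of Myc lay close together, and the lowest exposed kidney was above them all.

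Klf4, Klf6 and Ier2 rose less in kidney at 1 h, each without overlap between the groups. Klf6 read 7.85, 7.92, 7.96 and 8.11 against 7.12, 7.38, 7.43 and 7.52 and rose by 0.60 ± 0.13 (1.51-fold, padj = 0.00739). Klf4 read 6.25, 6.56, 6.74 and 7.27 against 5.85, 5.91, 6.15 and 6.23 and rose by 0.67 ± 0.17 (padj = 0.0255). Ier2 read 7.08, 7.33, 7.41 and 7.79 against 6.56, 6.76, 6.84 and 7.03 and rose by 0.60 ± 0.17 (padj = 0.0418). Klf2 (0.34 ± 0.18, padj = 0.332), Ier3 (0.15 ± 0.17, padj = 0.695) and Egr3 (-0.17 ± 0.11, padj = 0.406) overlapped, and Egr2 (0.84 ± 0.37, padj = 0.243) did not.

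Ifrd1 was the kidney call that held in every alternative run. With only the 1 h groups in the fit Egr1, Ier2, Klf4, Klf6 and Myc (padj = 0.0705) were not called, and against air of all times pooled the differences were 1.06 for Egr1 (padj = 0.284), 0.31 for Ier2 (padj = 0.435), 0.49 for Klf4 (padj = 0.0665) and 0.34 for Klf6 (padj = 0.145). With the rat as a block, which pools the spread of all solid tissues, Ier2 (padj = 0.298), Klf4 (padj = 0.353) and Klf6 (padj = 0.0655) were not called, while Egr1 (padj = 0.0209) and Myc (padj = 0.00145) were. With array weights Egr1, Ier2 and Klf6 were not called (padj = 0.0571, 0.0848 and 0.0517), with a trended robust fit Egr1 was not (padj = 0.0530), and Ier2 was not with quantile normalization (padj = 0.0750) or median centring (padj = 0.0626). Without the kidney of air Rat720, whose hepatocyte list stood 5.46 above the tissue median, and the other such arrays, Egr1 rose by 2.18 ± 0.48, Myc by 1.63 ± 0.29, Ier2 by 0.68 ± 0.18 and Klf6 by 0.51 ± 0.13, while Klf4 (0.63 ± 0.18, padj = 0.0715) was no longer called. Egr2 (0.97 ± 0.40), Klf2 (0.29 ± 0.20), Ier3 (0.23 ± 0.18) and Egr3 (-0.08 ± 0.11) still did not pass in that fit. Among left-out rats, the call of Egr1 was lost without Rat712, Rat716, Rat721 or Rat726, that of Ier2 without those or Rat727, and that of Klf4 without Rat716, Rat719, Rat720 or Rat726.

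**Figure D3:**
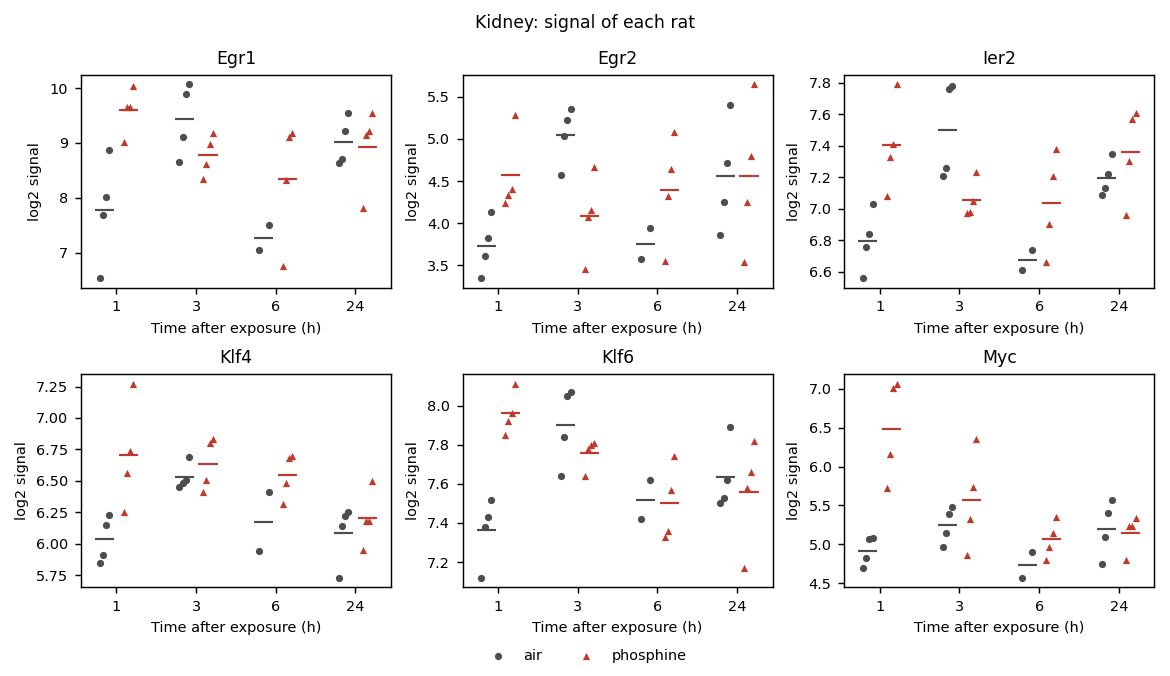
log2 signal of 6 members in the kidney of each rat by time after exposure, air as grey circles and phosphine as red triangles, with a line at the mean of each group. The groups do not overlap at 1 h, and at 3 h the exposed means of Egr1, Egr2 and Ier2 lie below the air means with no call.

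At 3 h in kidney the members lay on both sides of air. The median was -0.15 against -0.01 over all genes, 4 of 10 differences were above 0, and 1 member, Ifrd1, was called, where 2.86% of all genes were called higher. Egr2 (-0.96 ± 0.37, padj = 0.136), Egr1 (-0.65 ± 0.47, padj = 0.498) and Ier2 (-0.45 ± 0.17, padj = 0.113) were below air without passing. The air kidneys of Egr1 read 8.66, 9.11, 9.89 and 10.07 at 3 h, above 3 of the 4 air kidneys at 1 h.

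Ifrd1, a transcriptional coregulator known from regenerating muscle and gut, rose in 4 tissues at 1 and 3 h. In heart it read 9.05, 9.33, 9.86 and 9.90 against 7.83, 7.85, 7.91 and 7.92 at 1 h (1.66 ± 0.23, 3.15-fold, padj = 3.09e-04) and 8.30, 8.76, 9.17 and 9.63 against 7.52, 7.62, 7.62 and 7.67 at 3 h (1.36 ± 0.23, padj = 0.00173). In kidney it read 8.58, 9.13, 9.20 and 9.27 against 7.42, 7.46, 7.63 and 7.75 at 1 h (1.48 ± 0.14, 2.79-fold, padj = 2.06e-07) and 8.55, 8.58, 8.75 and 9.03 against 7.58, 7.72, 7.76 and 7.90 at 3 h (0.99 ± 0.14, padj = 5.42e-05). In these 4 comparisons every exposed organ was above every air organ, and the call in heart at 3 h was lost with only the 3 h groups in the fit (padj = 0.112). Without the arrays that carry another organ's transcripts Ifrd1 rose by 1.43 ± 0.25 in heart at 3 h (padj = 0.00349) and by 1.54 ± 0.15 in kidney at 1 h (padj = 6.62e-07).

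In liver Ifrd1 was the only member called. It read 9.17, 9.23, 9.35 and 9.41 against 7.92, 8.05, 8.09 and 8.19 at 1 h (1.23 ± 0.24, 2.34-fold, padj = 0.0153), where 0.208% of all genes were called higher. At 3 h it read 8.57, 8.76, 8.95 and 9.35 against 7.53, 7.68, 7.82 and 8.29 (1.08 ± 0.24, padj = 0.0110), where 1.99% were. Neither time showed overlap between the groups. Without the livers that carried skeletal muscle or nephron transcripts the difference was 1.19 ± 0.28 at 1 h, no longer called (padj = 0.0883), and 1.13 ± 0.28 at 3 h (padj = 0.0282). The call at 1 h was also lost without Rat712, Rat719, Rat720 or Rat721 (padj up to 0.0773), and that at 3 h without Rat731 (padj = 0.0509). At 1 h the 3' minus 5' difference of control transcripts, a measure that is higher in less intact RNA, was 0.464 to 0.513 in exposed livers and 0.528 to 0.710 in air livers, and its part in the result was not tested.

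In lung Ifrd1 read 9.17, 9.40, 9.49 and 9.50 against 8.18, 8.50, 8.65 and 8.68 at 1 h (0.89 ± 0.12, 1.85-fold, padj = 2.60e-05), where 2.18% of all genes were called higher. At 3 h it read 9.05, 9.06, 9.21 and 9.24 against 8.26, 8.35, 8.36 and 8.48 (0.78 ± 0.12, padj = 8.16e-05), where 5.84% were. The 3 h count of 1 in 10 members is near that share. The groups did not overlap at either time. Without the lungs that carried hepatocyte or skeletal muscle transcripts the differences were 0.88 ± 0.14 and 0.74 ± 0.16 and both were called. The neutrophil list stood at 5.74 to 6.57 in exposed and 5.25 to 5.70 in air lungs at 1 h, and at 5.99 to 6.66 against 5.07 to 5.65 at 3 h, and the macrophage list at 7.54 to 7.63 against 7.01 to 7.37 at 3 h, with 4 of 6 genes called higher. The erythroid list stood at 6.33 to 6.67 against 5.34 to 6.15 at 1 h, with Slc4a1, the red cell anion exchanger, higher (0.99 ± 0.24). Of the 6 endothelial genes 1 was higher and 2 were lower at 1 h, Cldn5 (0.44 ± 0.12) against Kdr (-0.54 ± 0.10) and Tek (-0.39 ± 0.10), and at 3 h Cldn5 (0.63 ± 0.12) against Kdr (-0.94 ± 0.10) and Emcn (-0.71 ± 0.13). The part of these cells in the lung values was not tested. In heart at 3 h the macrophage list stood at 6.91 to 7.84 against 6.68 to 6.87, and in kidney at 3 h at 5.93 to 6.22 against 5.49 to 5.91, likewise not tested.

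In brain Ifrd1 was not called. It read 8.03, 8.06, 8.06 and 8.08 against 7.84, 7.91, 7.94 and 7.95 at 1 h, without overlap, a difference of 0.15 ± 0.05 (padj = 0.305). At 3 h the difference was again 0.15 ± 0.05 (padj = 0.401). By 6 h Ifrd1 was at 8.03, 8.17, 8.72 and 9.10 in exposed hearts against 7.46 and 7.47 in the 2 air hearts (1.04 ± 0.28, padj = 0.115, and 9.11e-04 with the rat as a block). It was near air in kidney (0.09 ± 0.17) and liver (0.05 ± 0.30) at 6 h, and in lung it read 8.06 to 8.67 against 8.01 and 8.03 (0.35 ± 0.14, padj = 0.449). At 24 h its differences ran from -0.50 in liver to 0.18 in heart, none called.

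**Figure D4:**
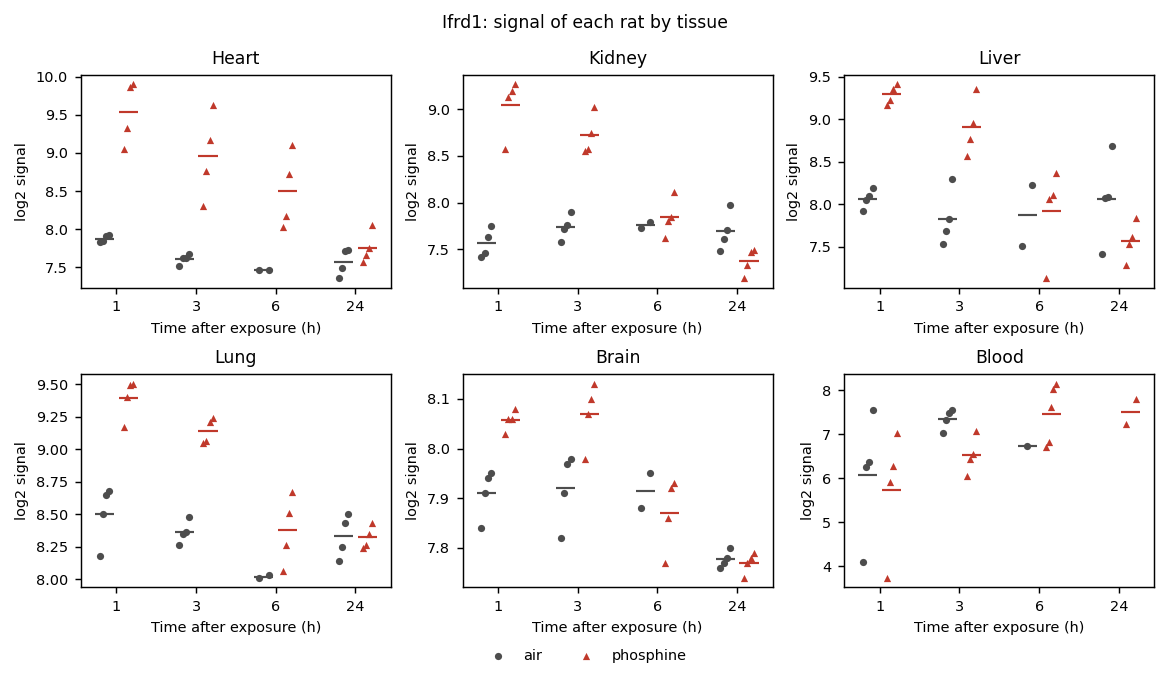
log2 signal of Ifrd1 in each rat by tissue and time after exposure, air as grey circles and phosphine as red triangles, with a line at the mean of each group; the vertical scale differs between panels. Exposed rats lie above all air rats in heart, kidney, liver and lung at 1 and 3 h, and the 2 blood samples at 24 h have no air group.

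The other members did not pass in liver, lung or brain. In liver at 1 h Myc read 7.19, 7.78, 8.0 and 8.05 against 6.07, 6.32, 6.82 and 7.14, without overlap, a difference of 1.17 ± 0.41 (padj = 0.380, and 0.0287 with the rat as a block), and of 1.08 ± 0.46 without the liver of Rat719 and the other such arrays. At 6 h all exposed livers lay below both air livers, with 4.79, 4.94, 5.32 and 5.86 in exposed livers against 6.17 and 6.68 in the 2 air livers (-1.20 ± 0.50, padj = 0.452). With air of all times pooled Myc in liver at 6 h was called lower (-1.83 ± 0.39, padj = 0.00361). In liver at 3 h 9 of 10 differences were below 0, with a median of -0.23 against -0.01 over all genes, led by Egr1 (-0.97 ± 0.47, padj = 0.315) and Ier3 (-0.89 ± 0.37, padj = 0.215, and 0.0144 with the block). Without the liver of Rat730 and the other such arrays 5 of 10 were below 0, with a median of -0.06, Egr1 at -0.89 ± 0.53 and Ier3 at -0.52 ± 0.34.

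Lung, the organ of entry of the gas, gave a median of 0.02 for the members at 1 h and 0.10 at 3 h, against -0.03 and 0.01 over all genes. Egr1 was at 6.86 to 8.27 in exposed and 7.31 to 8.49 in air lungs at 1 h (-0.38 ± 0.54, padj = 0.786), and differed by -0.68 ± 0.58 without the lung of Rat716 and the other such arrays. Egr2 at 3 h read 4.80, 4.85, 5.03 and 5.46 against 5.54, 5.57, 5.92 and 6.04, all exposed lungs below all air lungs (-0.73 ± 0.27, padj = 0.0806), and was called lower when only the 3 h groups were fitted or when Rat750 was left out. Ier2 at 3 h (0.44 ± 0.19, padj = 0.143) was called higher without Rat750. Without the 3 lungs that carried skeletal muscle transcripts at 3 h, and the other such arrays, Egr2 differed by -0.86 ± 0.36 (padj = 0.168) and Ier2 by 0.36 ± 0.26 (padj = 0.455).

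In brain limma called 0 of 10 members at each time, where 0.149% of all genes were called at 1 h, 0.506% at 3 h and 0% at both 6 and 24 h. At an unadjusted p under 0.05 the counts were 3, 1, 2 and 1 of 10. Egr1 was brighter in brain than elsewhere and read 10.50, 10.69, 10.75 and 10.84 against 10.54, 10.56, 10.62 and 10.81 at 1 h (0.06 ± 0.11). At 6 h it read 9.38, 9.73, 9.77 and 9.82 against 9.97 and 10.12 (-0.37 ± 0.14, padj = 0.733), below both air brains, and was called lower with air of all times pooled.

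In blood Klf2, which in lymphocytes and vessel cells marks a resting state, was the only member called. At 3 h it read 8.93, 9.44, 9.84 and 9.94 in exposed and 10.62, 10.81, 10.88 and 10.92 in air samples. The groups did not overlap, and Klf2 fell by 1.27 ± 0.28 (padj = 0.0146), where 5.80% of all genes were called lower. The count of 1 in 10 members is near that share. Its other probe sets gave -2.88 ± 0.66, -0.75 ± 0.32, -0.36 ± 0.36 and -0.17 ± 0.33. The call was lost without Rat729 (padj = 0.0611) and with air of all times pooled (padj = 0.172).

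White cell markers also differed between the blood groups at 3 h. The T cell list (4 of 4 genes measured) stood at 8.0 to 8.96 in exposed and 9.13 to 9.54 in air samples, the B cell list (2 of 4) at 7.06 to 8.68 against 8.78 to 9.95, and the neutrophil list, with overlap, at 7.78 to 8.49 against 7.17 to 7.98. Their part in the fall of Klf2 was not tested. Myc read 5.45, 6.52, 6.73 and 6.97 against 7.61, 7.68, 7.73 and 8.04 at 3 h, all exposed samples below all air samples (-1.35 ± 0.52, padj = 0.121), and was called lower when only the 3 h groups were fitted. Klf4 (-1.25 ± 0.54, padj = 0.164), Ifrd1 (-0.81 ± 0.60, padj = 0.461) and Ier2 (-0.63 ± 0.30, padj = 0.207) did not pass.

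At 1 h in blood limma called 0 members, where 0.00744% of all genes were called, and 1 had an unadjusted p under 0.05. Klf2 at that time read 8.96 to 9.82 against 9.65 to 10.32 (-0.50 ± 0.28, padj = 0.711). At 6 h, with 1 air sample, 0 members were called by limma or had an unadjusted p under 0.05, where 0.0521% of all genes were called. At 24 h the 2 exposed samples read 9.97 and 10.10 for Klf2, 6.82 and 6.84 for Myc and 4.56 and 5.31 for Egr1.

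Whether the effect of phosphine differed between the 5 solid tissues was tested with limma's moderated F. The fit took the organs of a rat as separate samples and gave each gene 1 spread for all tissues, as in the pairs of tissues below. Spreads differ by tissue: the SD of Egr1 over air rats was 0.28 in brain and 1.05 in kidney. At 1 h the effect differed for 6 members, where 3.27% of all genes were called: Ifrd1 (padj = 3.11e-05), Myc (padj = 2.77e-04), Ier2 (padj = 0.00377), Egr1 (padj = 0.00602), Egr2 (padj = 0.0131) and Klf6 (padj = 0.0408). At 3 h it differed for 5 members, where 14.4% were called: Ifrd1 (padj = 0.00170), Egr1 (padj = 0.00606), Myc (padj = 0.0141), Egr2 (padj = 0.0205) and Ier2 (padj = 0.0279). At 6 h it differed for Myc (padj = 0.0182), where 1.35% were called, and at 24 h for none by limma, with 0 of 10 at an unadjusted p under 0.05, where 0.625% were. The 1 h count was 3 without Rat712 and 2 without Rat719 or Rat726. The 3 h count was 1 without Rat730 and 3 without Rat732, Rat733 or Rat739, and the 6 h call of Myc was lost without Rat761, Rat762 or Rat763. Without the arrays that carry another organ's transcripts Ier2 (padj = 0.100) and Myc (padj = 0.0712) were not called at 3 h, and Klf2 (padj = 0.0178) was called at 1 h.

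Pairs of tissues placed the effects on Egr1, Egr2 and Ier2 at 1 h higher in heart than in liver and lung. Egr3 was called in no pair. The Egr1 effect was larger in heart than in lung by 2.61 ± 0.67 (padj = 0.0265) and than in liver by 2.46 ± 0.67 (padj = 0.0325). For Egr2 the gaps were 2.28 ± 0.56 over lung and 2.38 ± 0.56 over liver, and for Ier2 1.44 ± 0.34 and 1.52 ± 0.34. Egr2 was dim in air livers (3.57 ± 0.22 SD, against a median of 4.41 over all probe sets), and the part of this in its gap over liver was not tested. The Klf2 effect was larger in heart than in lung by 1.50 ± 0.39 (padj = 0.0315), and that of Myc by 1.95 ± 0.47 (padj = 0.0133). In these tests 0.953% of all genes were called between heart and lung and 1.50% between heart and liver. Heart and kidney did not differ by a call for any member at 1 h, which does not show that they responded alike. The effects in brain were below those in heart for Egr1 (-2.17 ± 0.67, padj = 0.109) and Egr2 (-1.79 ± 0.56, padj = 0.118) without a call. For Egr1 the gap of kidney over lung was 2.19 ± 0.67 (padj = 0.130). It was called without the arrays that carry another organ's transcripts (2.86 ± 0.72, padj = 0.026).

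The effects on Myc and Ifrd1 at 1 h were lower in brain than in heart and kidney, and that on Ifrd1 was also lower than in liver, while brain and lung did not differ by a call for either gene (padj = 0.824 and 0.177) nor brain and liver for Myc (padj = 0.153). Myc was dim in the air brains of all times (3.97 ± 0.19 SD, against a median of 4.41 over all probe sets). The part of this in its brain effects was not tested. At 1 h the Myc effect in brain was below that in heart by a difference of -2.51 ± 0.47 (padj = 4.45e-04) and below kidney by -1.91 ± 0.47 (padj = 0.0371), the second of which was lost without the arrays that carry another organ's transcripts (-1.97 ± 0.50, padj = 0.0596). The Ifrd1 effect in brain was below heart by -1.51 ± 0.25, below kidney by -1.33 ± 0.25 and below liver by -1.08 ± 0.25, and the Ier2 effect below heart by -1.38 ± 0.34. Between brain and heart 0.833% of all genes were called at 1 h, between brain and kidney 0.268%, and between brain and liver 0.424%.

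At 3 h the Egr1 effect in heart exceeded that in kidney by 2.51 ± 0.67 (padj = 0.0201), in liver by 2.83 ± 0.67 (padj = 0.00260) and in lung by 2.41 ± 0.67 (padj = 0.0189). Egr2 and Ier2 differed between heart and kidney (2.12 ± 0.56 and 1.22 ± 0.34), Egr2 also between heart and lung (1.89 ± 0.56), and Ier3 between heart and liver (1.28 ± 0.38). Myc was larger in heart than in liver (1.75 ± 0.47) and lung (1.71 ± 0.47). In brain, the effects on Ifrd1 (-1.21 ± 0.25) and Myc (-1.60 ± 0.47) were below those in heart, and that on Ifrd1 below liver (-0.93 ± 0.25). The shares of all genes called were 2.63% for heart and kidney, 7.81% for heart and liver, 5.05% for heart and lung, 1.93% for brain and heart and 3.87% for brain and liver. Without the arrays that carry another organ's transcripts Ier3 between heart and liver (0.82 ± 0.39, padj = 0.233), Egr2 (2.07 ± 0.68, padj = 0.0950) and Myc (padj = 0.105) between heart and lung, and Myc between brain and heart (-1.47 ± 0.50, padj = 0.133) were no longer called at 3 h. At 6 h the Myc effect in heart exceeded that in liver by 2.86 ± 0.58 (padj = 0.00106), where 1.46% were called.

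Between times within a tissue, the effect on Ifrd1 differed in kidney (moderated F, padj = 7.63e-06), lung (padj = 0.00370) and liver (padj = 0.0281), where 1.75%, 6.38% and 0.476% of all genes were called. The kidney count of 1 was 2 without Rat712, Rat719, Rat720, Rat728, Rat729, Rat741 or Rat789 and 3 without Rat738, Rat748 or Rat760. The liver call was lost without Rat719, Rat742, Rat744 or Rat750. In kidney the Ifrd1 effect at 1 h exceeded that at 6 h by 1.39 ± 0.22 and that at 24 h by 1.80 ± 0.19, and the 3 h effect exceeded that at 24 h by 1.31 ± 0.19. In lung the gaps to 24 h were 0.90 ± 0.17 from 1 h and 0.79 ± 0.17 from 3 h, and in liver 1.57 ± 0.34 from 3 h. Without the arrays that carry another organ's transcripts the gaps from 3 to 24 h were not called in lung (0.76 ± 0.21, padj = 0.0616) or liver (1.61 ± 0.39, padj = 0.0671), nor was the liver test over all times (padj = 0.0937). The shares of all genes called in these pairs were 0.335%, 0.729% and 2.46% in kidney, 1.93% and 3.86% in lung and 0.938% in liver.

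In heart no member passed the test over all 4 times, where 0.424% of all genes did. There 7 of 10 had an unadjusted p under 0.05 by limma's F, a threshold at which the share of all genes is not given. In brain none passed, with 1 of 10 at an unadjusted p under 0.05, where 0.0893% of all genes passed. The heart count was 1 without Rat728, Rat729 or Rat761. The single pair of 1 against 24 h in heart was called for Egr1 (3.34 ± 0.76, padj = 0.0378), Ier2 (2.05 ± 0.46, padj = 0.0358), Ifrd1 (1.48 ± 0.32, padj = 0.0348) and Klf4 (1.40 ± 0.29, padj = 0.0273), where 0.506% of all genes were called. In kidney the 1 h effect on Myc exceeded that at 24 h by 1.62 ± 0.38 (padj = 0.0387). Without the arrays that carry another organ's transcripts the heart pair was not called for Ifrd1 (1.53 ± 0.37, padj = 0.0504) and was called for Klf2 (1.60 ± 0.33, padj = 0.0222), and over all times Klf4 in heart (padj = 0.0457) and Ier2 in kidney (padj = 0.0496) were called.

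At 6 h limma called 0 of 50 pairs of a member and a solid tissue, with 9 at an unadjusted p under 0.05, where 0.35% of all genes were called in heart, 0.35% in kidney, 0.223% in liver and 0.0967% in lung. The exposed hearts were split at 6 h. Egr1 read 8.18, 8.45, 10.20 and 10.55 against 7.38 and 8.35 in air, so that 2 exposed hearts lay near the air hearts and 2 far above (1.48 ± 0.66, padj = 0.456). Rat761 was the highest exposed heart for 8 of the 10 members. Myc read 5.30, 5.94, 6.37 and 7.53 against 4.55 and 4.70, without overlap (1.66 ± 0.59, padj = 0.287), and was called with the rat as a block (padj = 0.00828), with array weights and with air of all times pooled. Pooled air gave 6 further calls at 6 h, Egr3 and Ifrd1 in heart, Ier3 in kidney and Myc in lung higher, and Egr1 in brain and Myc in liver lower.

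At 24 h limma called 0 of 50, with 4 at an unadjusted p under 0.05, where 0.0819% of all genes were called in heart, 0% in kidney, 0% in liver and 0.00744% in lung. One air rat, Rat750, stood high in heart and lung and, by less and for fewer members, in kidney. Its Egr1 was 10.57 in heart, where the other 3 air rats had 8.27 to 8.74, and 11.15 in lung, where they had 7.41 to 8.94. Its Egr2 was 7.29 in heart against 4.21 to 4.45 and 7.80 in lung against 5.89 to 6.54. Rat750 had the highest air value of 7 members in heart and of 8 in lung at 24 h, and its Egr1 was above that of 3 of the 4 hearts collected 1 h after phosphine, and in lung above every other lung. In kidney Rat750 was the highest air rat for 4 members, with Egr1 at 9.54 against 8.63 to 9.21 and Egr2 at 5.40 against 3.86 to 4.71. Its Klf4 (5.73 against 6.14 to 6.25) and Ifrd1 (7.48 against 7.61 to 7.97) lay below the other air kidneys. In brain (10.19, others 9.87 to 10.31) and liver (7.36, others 7.16 to 7.87) its Egr1 lay among the other air rats.

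Among air rats the collection times were also compared. Over the 4 air groups of a tissue, the moderated F called Egr2 in lung (padj = 0.0406), where 1.67% of all genes were called, a call that was lost without Rat720, Rat721, Rat726, Rat732, Rat733, Rat750, Rat751 or Rat762. No other member was called in brain (0% of all genes), heart (0.104%), kidney (0.64%), liver (0.246%) or lung, where the counts at an unadjusted p under 0.05 were 2, 0, 5, 2 and 3. The kidney count was 1 without Rat716, Rat719, Rat727, Rat738, Rat748 or Rat789 and 2 without Rat760.

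The air rats differ in their levels by tissue, and the order is given within a probe set. Egr1 was highest in brain, at 10.28 ± 0.28 (SD, n = 14), then in kidney (8.53 ± 1.05), heart (8.09 ± 0.83), lung (8.08 ± 1.04) and liver (7.86 ± 0.58), the last 4 within 1 SD of their neighbours, and lowest in blood (4.23 ± 0.59, n = 9). Egr2 was higher in brain (6.07 ± 0.50) and lung (5.79 ± 0.70) than in heart (4.49 ± 0.86) and kidney (4.35 ± 0.70), and lowest in blood (3.85 ± 0.32) and liver (3.57 ± 0.22). Egr3 lay between 2.89 ± 0.17 in lung and 3.66 ± 0.47 in blood.

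Klf4 and Klf6 were brightest in lung, as was Klf2 on the deposited scale. Klf2 was at 10.53 ± 0.34 in lung and 10.28 ± 0.54 in blood, followed by heart (9.16 ± 0.24), kidney (8.0 ± 0.22), liver (6.80 ± 0.32) and brain (6.52 ± 0.30). Klf4 was at 9.71 ± 0.28 in lung, 8.14 ± 0.21 in heart, 6.21 ± 0.28 in kidney, 6.14 ± 0.79 in blood, 5.25 ± 0.29 in liver and 5.24 ± 0.29 in brain. Klf6 was at 9.79 ± 0.24 in lung and between 6.96 ± 0.28 in liver and 8.0 ± 0.24 in heart elsewhere. When all arrays were quantile-normalized together, blood stood above lung for Klf2.

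Ier2 was highest in lung (8.87 ± 0.39) and lowest in brain (5.69 ± 0.31), with liver (7.63 ± 0.35), blood (7.39 ± 0.43), heart (7.33 ± 0.47) and kidney (7.10 ± 0.38) within 1 SD of their neighbours. Ier3 was highest in liver (8.69 ± 0.68), followed by heart (8.27 ± 0.38), lung (8.26 ± 0.44) and kidney (8.19 ± 0.30), and lower in brain (6.15 ± 0.24) and blood (4.11 ± 0.83). With all arrays centred on their medians it was at 8.91 in liver and 8.12 in lung, and levels were not tested between tissues. Ifrd1 lay in solid tissues between 7.66 ± 0.18 in heart and 8.35 ± 0.21 in lung, and was at 6.71 ± 1.10 in blood. Myc was at 7.05 ± 0.79 in liver, 7.00 ± 0.23 in lung and 6.91 ± 1.16 in blood, and lower in kidney (5.07 ± 0.31), heart (4.66 ± 0.39) and brain (3.97 ± 0.19). In the joint quantile normalization blood stood above liver for Myc and for Ier2 (8.24 ± 0.48 against 7.51 ± 0.33), above heart for Klf6, above kidney for Klf4 and below liver for Egr2 and Egr3.

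**Figure D5:**
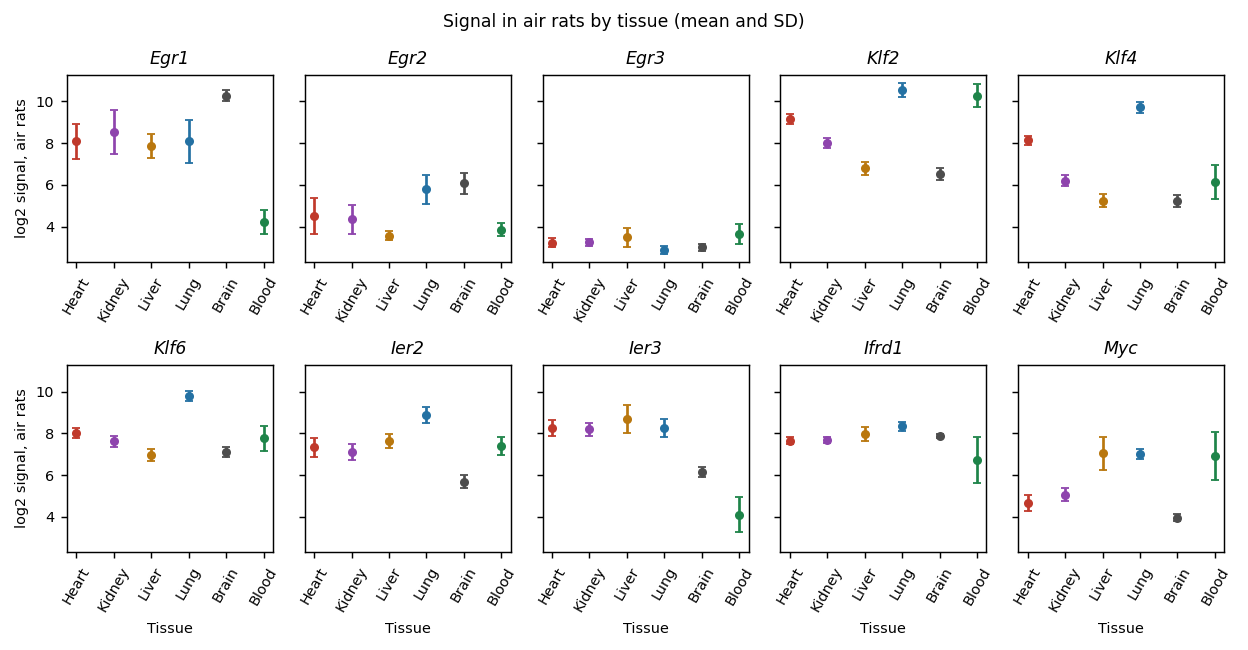
Mean log2 signal of each member in air rats (points) with the SD (bars) by tissue, over 14 rats per solid tissue and 9 blood samples. Egr1 is highest in brain, and Klf2, Klf4, Klf6 and Ier2 in lung (Klf2 in blood when all arrays are quantile-normalized together); levels are comparable within a panel only.

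Genes of fixed lists around the members were counted against the share of all genes called in the same direction, and at 3 h in blood and lung that share was itself over 5% (5.80% lower in blood, 5.84% higher and 5.76% lower in lung). These lists, like the members, were chosen with earlier results of these data known, so such a count is no independent test. Of 30 measured genes of the list of other immediate early genes, 17 were higher and 0 lower in heart at 1 h, where 0.99% of all genes were higher, with a median difference of 1.24, led by the stress factor Atf3 (4.16 ± 0.57), the matricellular gene Ccn1 (3.46 ± 0.75) and the orphan receptor Nr4a1 (3.11 ± 0.58). In kidney at 1 h, where 2.12% of all genes were higher, 16 were higher and 0 lower (median 0.83), led by Atf3 (3.96 ± 0.34), Fosb (3.27 ± 0.33) and Nr4a1 (2.51 ± 0.35). In lung at 1 h, where Ifrd1 alone of the members was called and 2.18% of all genes were higher, 8 were higher and 0 lower (median 0.24), led by Fosb (3.14 ± 0.44) and Nr4a3 (2.80 ± 0.25). At 3 h the counts were 5 in heart (1.06% of all genes), 6 in kidney (2.86%) and 4 in lung (5.84%), all higher, and in liver 1 higher (Per1, against 1.99%) and 2 lower (against 1.87%), the phosphatases Dusp6 (-1.85 ± 0.37) and Dusp1 (-1.44 ± 0.41). In blood at 3 h 2 of the 30, Zfp36 (-1.80 ± 0.49) and Mcl1 (-1.37 ± 0.40), were lower, a share near the 5.80% of all genes.

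Of 18 measured relatives and corepressors, 3 were higher and 0 lower in heart at 1 h, against 0.99% of all genes: Ier5 (1.36 ± 0.23), Klf10 (1.35 ± 0.21) and Klf7 (0.87 ± 0.17). In kidney at 1 h 4 were higher (2.12% of all genes), led by Klf11 (1.10 ± 0.22) and Klf10 (0.90 ± 0.20), and at 3 h 2 (2.86%), the Egr corepressors Nab2 (0.99 ± 0.17) and Nab1 (0.52 ± 0.15). In lung 5 were higher at 1 h (2.18% of all genes) and 3 at 3 h (5.84%), led by Klf15 (0.82 ± 0.24 and 1.06 ± 0.24), a glucocorticoid-induced factor. In heart at 3 h Klf3 was higher (0.77 ± 0.16) and Mycn lower (-1.35 ± 0.28), where 1.06% of all genes were higher and 2.28% lower. In brain at 3 h Klf15 (0.60 ± 0.11) and Klf9 (0.48 ± 0.10) were higher, where 0.365% were, and in liver at 3 h Klf13 was (0.70 ± 0.19), where 1.99% were. In blood at 3 h 1 of the 18, Ier5, was lower (-1.93 ± 0.54), near the 5.80% of all genes.

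Of 5 measured genes linked to Egr1 in injury 2 were higher in heart at 1 h, against 0.99% of all genes: the clotting initiator F3 (1.22 ± 0.22) and Vegfa (0.55 ± 0.12). F3 was also higher in kidney at 1 h (1.39 ± 0.23), where 2.12% were. At 3 h Vegfa was lower in brain (-0.43 ± 0.08), where 0.141% of all genes were, and Icam1 in lung (-0.41 ± 0.12), where 5.76% were. Of 7 endothelial genes linked to Klf2 and Klf4, S1pr1, a receptor that holds the vessel barrier, was higher in heart at 1 h (0.90 ± 0.17, against 0.99% of all genes). It was also higher in heart at 3 h (0.65 ± 0.17, 1.06%) and lung at 1 h (0.59 ± 0.15, 2.18%), and lower in blood at 3 h (-1.74 ± 0.46, 5.80%). Tek was lower in lung at 1 h (-0.39 ± 0.10), where 3.62% of all genes were lower. Nos3 was higher in lung at 3 h (0.90 ± 0.17), where 5.84% were higher, and Sele in heart at 6 h (2.08 ± 0.37), where 0.186% were.

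Ribosome and growth genes linked to Myc were called most in liver at 3 h, a tissue in which Myc itself was not called. There 9 of 15 were higher and 0 lower (median 0.57 against -0.01 over all genes, of which 1.99% were higher), led by the nucleolar genes Nop58 (1.07 ± 0.20), Nop56 (1.06 ± 0.15) and Rrs1 (1.03 ± 0.27). In lung at 3 h 6 were higher (5.84% of all genes), led by the polyamine enzyme Odc1 (0.73 ± 0.14), and in kidney 3 (2.86%). In heart, where Myc rose at 1 h, 0 of 15 were called by limma at that time (0.99% of all genes were higher), with 3 at an unadjusted p under 0.05. Gnl3 (0.46 ± 0.11) was the 1 called there at 3 h (1.06% of all genes were higher), with 9 at an unadjusted p under 0.05 and a median of 0.27. In kidney at 1 h, where Myc also rose, limma called 0 of 15, with 7 at an unadjusted p under 0.05 and a median of 0.17, and in liver at 3 h 14 had an unadjusted p under 0.05. In blood at 3 h 3 were lower (5.80% of all genes), among them Gnl3 (-1.50 ± 0.41) and Fbl (-1.23 ± 0.28). Of 6 measured Myc partners Mnt was higher at 1 h in kidney (0.54 ± 0.11, against 2.12% of all genes) and lung (0.38 ± 0.10, 2.18%). Mxd1 (0.68 ± 0.17) and Mxd4 (0.65 ± 0.14) were higher in lung at 3 h (5.84%), while Mxi1 was lower in lung at 1 h (-0.29 ± 0.08, 3.62%). Of 8 upstream kinases and factors Mrtfa was higher in heart at 6 h (0.99 ± 0.21), where 0.186% of all genes were. Elk3 was lower in lung at 1 h (-0.52 ± 0.13, against 3.62% of all genes). At 3 h Elk3 (-0.67 ± 0.13) and Creb1 (-0.75 ± 0.22) were lower in lung (5.76%) and Elk3 in blood (-1.95 ± 0.51, 5.80%).

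In the groups that hold arrays with another organ's transcripts, 83 calls of list genes were made with all arrays and 60 without these. Among the genes named above, the calls of Dusp1 and Per1 in liver, Gnl3 in heart, Icam1 and Creb1 in lung at 3 h and Mxi1, Elk3 and Klf15 in lung at 1 h were lost, and the Myc-linked counts at 3 h fell from 9 to 5 in liver and from 6 to 2 in lung. Counts of other immediate early genes fell at 1 h from 8 to 5 in lung and from 16 to 14 in kidney. At 3 h they fell from 5 to 3 in heart, from 4 to 2 in lung and from 3 to 1 in liver. Relatives and corepressors in lung fell from 5 to 4 at 1 h and from 3 to 1 at 3 h.

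The genes most like each member were taken by Pearson's r over the 20 differences of solid tissues and times, as a description with no test, since the differences share rats and, within a tissue, a fit. Only genes outside the members whose mean over all arrays lay above that of the median gene were searched. Junb was nearest to Ier2 (r = 0.95) and Egr1 (r = 0.83) and second to Egr2 (r = 0.79), whose nearest was Otud1 (r = 0.81). The nearest gene was Jun for Klf6 (r = 0.90), Creb3 for Klf2 (r = 0.87), Sgk1 for Klf4 (r = 0.81), Dusp6 for Ier3 (r = 0.85) and Rgs2 for Myc (r = 0.79). Ifrd1 was nearest to Emb and Per1 (r = 0.87 for both). Egr3, with little spread of its own, was nearest to Lmna (r = 0.76). Among the members, r was highest between Egr1 and Ier2 (0.89) and between Egr1 and Egr2 (0.88), and Ifrd1 was closest to Myc (0.73) and at -0.09 to Ier3.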

How the data were processed

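Total RNA of 174 samples from 33 rats was hybridised to single-colour Affymetrix rat arrays after biotin labelling, per the labels' protocols. The authors deposited a log2 signal for every probe set, made with RMA and Partek per the submitters' processing notes; versions, and whether tissues were normalized together, are not given in the sources used here. Of 31139 probe sets, 19063 name 1 gene, which gave 13438 genes. Each tissue was fitted with limma 3.58.1 in R 4.3.3, with 1 mean for each combination of exposure and time and no filter on dim genes, and the contrasts were tested with eBayes. The spread over all arrays of a tissue let the 6 h groups with 2 or 1 air samples be tested. Differences between tissues came from 1 fit of the solid tissues. Recovery of known changes was checked in simulated signals for the fits of heart, kidney and blood, each alone, and not for the fit of the solid tissues together. P-values measure the spread between rats, and the files give no batches. Rat numbers mark the same animal across tissues, and the consensus correlation within rats was 0.0268.

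The members and gene lists were chosen with earlier results of these data known. All 10 members were named, with up to 3 called genes per list and comparison and the 3 genes most like each member. As alternatives, the arrays of a tissue were quantile-normalized or centred on their medians, genes below the 40th percentile were dropped, probe sets of a gene were averaged, and the fit used a trended robust prior, array weights, the 2 groups alone, pooled air of all times, the rat as a block, or all arrays but the 11 that carried another organ's transcripts. Each rat was also left out in turn.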

Additional observations from a re-analysis of the deposited data

Results flagged for a closer look

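In 16 of 400 groups of 4 or 5 rats, 1 rat lay far from the others by Dixon's criterion, which chance gives in about 1 in 20 groups. The highest values were Egr1 in liver of exposed Rat710 at 1 h (7.95, next 7.45), Egr1 in lung of air Rat732 at 3 h (8.52, next 7.69), Egr2 in heart of air Rat750 at 24 h (7.29, next 4.45) and Egr2 in kidney of exposed Rat716 at 1 h (5.28, next 4.41). So were Egr3 in kidney of air Rat733 at 3 h (3.35), Ier3 in liver (9.27) and Klf2 in heart (9.53) of exposed Rat749 at 24 h, Klf4 in heart of exposed Rat761 at 6 h (8.97) and Myc in brain of exposed Rat710 at 1 h (4.0). The heart of Rat749 was among the arrays with transcripts of another organ. The lowest values were Ier3 in brain of exposed Rat729 at 3 h (5.86), Ier3 in kidney of exposed Rat710 at 1 h (7.89), Klf2 in brain (5.98) and Klf6 in kidney (7.64) of exposed Rat728 at 3 h, Myc in brain (3.27) and lung (6.82) of exposed Rat742 at 24 h, and Myc in liver of air Rat751 at 24 h (5.78).

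The effect of phosphine differed between groups by limma's moderated F for 15 combinations. Between times it differed for Ifrd1 in kidney (padj = 7.63e-06), lung (padj = 0.00370) and liver (padj = 0.0281). Between tissues at 1 h it differed for Ifrd1 (padj = 3.11e-05), Myc (padj = 2.77e-04), Ier2 (padj = 0.00377), Egr1 (padj = 0.00602), Egr2 (padj = 0.0131) and Klf6 (padj = 0.0408). Between tissues at 3 h it differed for Ifrd1 (padj = 0.00170), Egr1 (padj = 0.00606), Myc (padj = 0.0141), Egr2 (padj = 0.0205) and Ier2 (padj = 0.0279), and at 6 h for Myc (padj = 0.0182).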

How the results depend on the processing

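No difference between phosphine and air that was called for a member changed direction under an alternative. Over the settings, called differences kept their side of the threshold in 162 cases and lost it in 26, and uncalled ones kept it in 1981 and passed in 27. Of the 14 calls in solid tissues at 1 h, 7 were left with only the 2 groups in the fit, and leaving out 1 rat gave 8 to 15. The 4 calls at 3 h became 9 with the rat as a block and 3 to 7 without 1 rat. The 0 calls at 6 h became 7 with pooled air, 2 with array weights and 2 with the block. The block left 13 calls at 1 h and 0 at 24 h. The 1 call in blood at 3 h became 0 with pooled air, 2 with only the 2 groups and 0 to 1 without 1 rat. For the effect between times, array weights gave 5 in heart and 2 in kidney, a trended robust fit 3 in kidney, and dropping the arrays that carried another organ's transcripts 1 in heart, 2 in kidney and 0 in liver. Leaving out 1 rat gave 0 to 1 in heart, 1 to 3 in kidney and 0 to 1 in liver. For the effect between tissues, leaving out such arrays gave 3 at 3 h, array weights gave 2 at 6 h, and leaving out 1 rat gave 2 to 7 at 1 h, 1 to 6 at 3 h and 0 to 1 at 6 h. Among air rats, array weights gave 1 in brain and 2 in kidney, and leaving out 1 rat gave 0 to 2 in kidney and 0 to 1 in lung. Of the 38 pairs of tissues or times called for a member, 30 were also called without such arrays, and 3 others were added. For the gene lists this alternative was chosen after seeing the data. The cause of these shifts was not tested. The fit of blood at 6 h without its 1 air sample was not run. With 4 rats a group, and 2 or 1 air samples at 6 h, the number of arrays limits what can be called, and Egr3 was dim throughout. Myc in brain and Egr2 in liver were also dim.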
